A study of Mus musculus with 547 samples.

Results

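The cells described here are the hepatoblasts of the E11.5 mouse liver, the progenitors from which hepatocytes and cholangiocytes (bile duct cells) arise. They were chosen by their labels, which give embryonic day E11.5 and the putative type hepatoblast/hepatocyte. The sort gates and that annotation already rest on properties of the cells. Of 529 single cells in the study, 68 met the rule, 36 from the gate for DLK1 (DLK+) and 32 from the gate for EpCAM (EpCAM+). They were sorted from livers of untreated embryos, picked singly by mouth pipette and amplified by Smart-seq2, a full-length method without molecular identifiers. The labels give no strain and do not say how many embryos were used. Each title carries a set number. The DLK+ cells came from sets 1, 2 and 3 with 16, 13 and 7 cells, and the EpCAM+ cells from sets 2 and 3 with 24 and 8 cells. Comparison groups were DLK+ hepatoblasts of E10.5 (54 cells in 3 sets) and of E12.5 (21 cells in 2 sets), treated in the same way, and bulk libraries of DLK+ cells with 2 per day. What a set stands for (embryos of a litter, a sorting day, a plate) is not stated, and p-values therefore reflect only how far sets differ, which may be technical.

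Hepatoblasts bud from the foregut endoderm, invade the surrounding mesenchyme and proliferate while they switch on the secretory and metabolic genes of the liver. DLK1 is a surface protein of these progenitors, and AFP, the fetal counterpart of albumin, is their main secreted protein. EpCAM is an adhesion protein found on early hepatoblasts and, later, on bile duct cells. HNF4A is a nuclear receptor needed for hepatocyte gene expression. At this stage the liver is also becoming the site of fetal blood formation, and hepatoblasts lie among blood precursors.

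The 68 cells held 768600 to 1573000 reads each, with a median of 1079000. The number of genes with a read was 8406 to 10470 (median 9508). ERCC spike-in RNA took 1.11 to 3.04% of the reads. The EpCAM+ cells of set 3 stood apart, with medians of 878000 reads, 8955 genes and 38.4 endogenous reads per ERCC read, against set medians of 55.8 to 67.2 in the other 4 sets. No pair of cells held identical counts, and the closest pair had a Pearson r of 0.907. Each cell had at least 10 reads either of Xist, which is transcribed from the inactive X chromosome (34 cells), or of 4 Y-linked genes in sum (34 cells), and no cell had both. Both kinds of cell occurred in 4 of the 5 sets, so these held cells of at least 2 embryos. The 7 cells of DLK+ set 3 were all of the Y-linked kind.

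Levels are given as TPM (transcript abundance corrected for gene length and scaled to a common total). They are means of the set means ± SD over the 5 sets, followed where useful by the lowest and highest cell. The marker genes of the label are given as a description, since DLK1 was sorted for in 36 cells and the annotation was in place before. Afp (chr5:90490737-90508907, GRCm38) had 54514 ± 2768 TPM (SD, n = 5), and its cells ran from 21581 to 99047. The set means of Afp were 53214, 52370 and 58521 in the DLK+ gate and 52217 and 56251 in the EpCAM+ gate, which overlap. Alb, the albumin gene (chr5:90460897-90476602), had 10533 ± 1599 TPM, with cells from 1014 to 28526. Dlk1 had 549 ± 56.0 TPM and was at 357 TPM or more in each cell. Hnf4a had 42.8 ± 9.37 TPM and was at 10 TPM or more in 67 of the 68 cells. Transcripts of both secreted proteins were thus present at high levels in each cell, while Alb spread more widely than Afp.

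**Figure D1:**
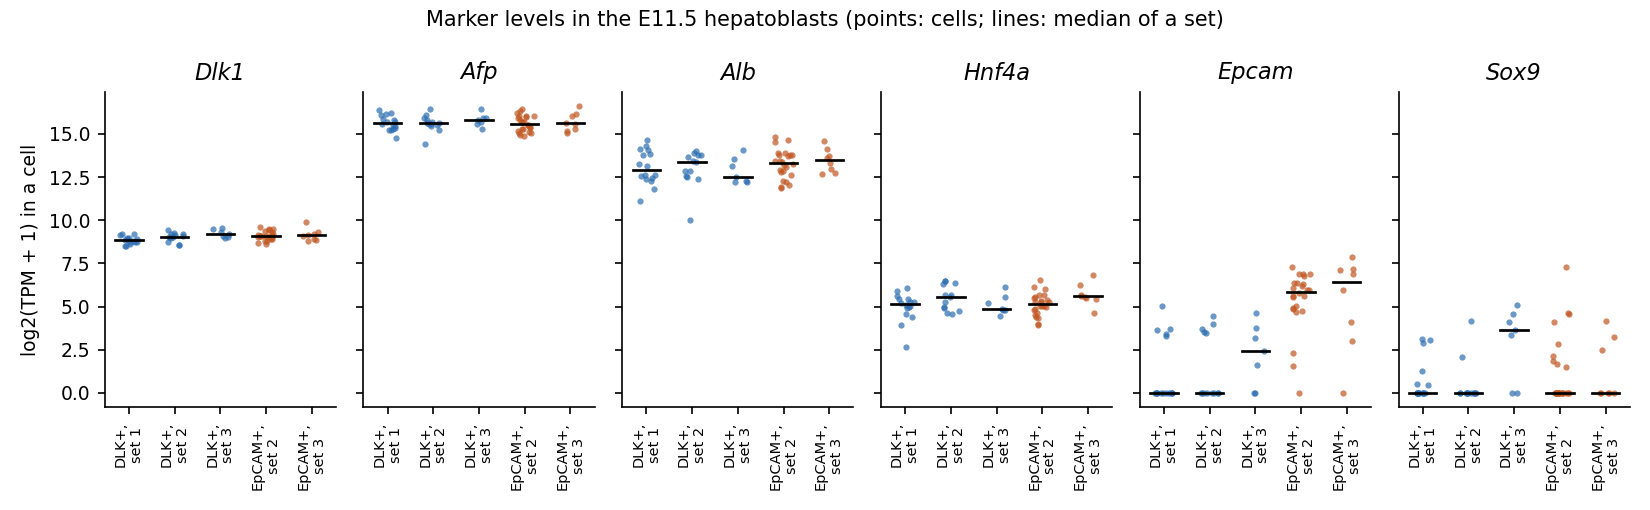
Levels of 6 marker genes in each E11.5 hepatoblast as log2(TPM + 1), by gate and set; points are cells and lines the median of a set. Dlk1, Afp, Alb and Hnf4a lie at like levels in the 5 sets, Epcam is high in the EpCAM+ sets, and Sox9 is at 0 TPM in most cells.

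Secreted plasma proteins made up much of the message. Of the 22 listed plasma carriers and apolipoproteins, 18 had a mean of at least 100 TPM, and together they took 5.70 to 24.2% of a cell's TPM, with a median of 11.4%. After Afp came the lipoprotein genes Apoa2 (11910 TPM) and Apoa1 (7972 TPM), the retinol carrier Rbp4 (8968 TPM) and the steroid carrier Serpina6 (8627 TPM). Of 25 coagulation and complement genes, 14 had at least 100 TPM, led by the fibrinogen chain Fgb with 2964 ± 402 TPM. The list included prothrombin, F2, with 600 ± 31.9 TPM and plasminogen, Plg, with 759 ± 111 TPM. In each of the 68 cells, 17 of the 22 carriers and 14 of the 25 coagulation and complement genes were at 10 TPM or more.

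Transcripts of the machinery that folds and exports such proteins were also high. Of 15 genes of the endoplasmic reticulum, 13 had at least 100 TPM, among them the chaperone Hspa5 (1452 ± 236 TPM) and the disulfide isomerase P4hb (1156 ± 94.5 TPM). Xbp1, a transcription factor of secretory cells, had 393 TPM. The RNA with the highest mean of the named genes was Yam1, listed as a non-coding gene, with 88079 ± 7180 TPM and 8.81% of reads. Its reads may come from several repeated copies, so its level is uncertain.

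Genes of mature hepatocyte metabolism were split. Of the urea cycle, Ass1 (256 TPM), Asl (177 TPM) and Otc (125 TPM) were present, whereas Cps1, which starts the cycle, had 3.56 TPM and reached 10 TPM in 9 cells. Of the gluconeogenic genes, Pck1 had 1.02 TPM, and G6pc, which releases free glucose, had a read in 1 cell. No read of Tdo2, a tryptophan-degrading enzyme of mature liver, was found in 68 cells. That allows a share of up to 4.41% of cells with a read, taking cells as independent although they share sets. None of 16 genes of bile acid and drug metabolism had 100 TPM and 9 had under 1 TPM, including Cyp7a1, the rate-limiting enzyme of bile acid synthesis, with 0.473 TPM. By contrast, 8 of 13 genes of fatty acid oxidation and ketogenesis had at least 100 TPM, for example Acadl with 342 ± 20.8 TPM. Of 14 sterol synthesis genes, 10 reached 100 TPM, led by Fdps with 680 ± 109 TPM.

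Transcripts of glycolytic enzymes were present in embryonic and liver forms. Ldha, which makes lactate, had 4852 ± 759 TPM, and Aldoa, an aldolase, 1316 TPM. Pkm, the pyruvate kinase gene of growing cells, had 747 ± 378 TPM and the liver gene Pklr 25.3 TPM. Fetal growth genes were broadly on, with at least 10 TPM for 17 of 18. Gpc3, a heparan sulfate proteoglycan, had 1446 ± 82.4 TPM, the growth factor Igf2 936 ± 95.9 TPM and the imprinted non-coding RNA H19 713 ± 66.3 TPM. Lin28b and Hmga2, which mark fetal and proliferating tissue, had 18.46 and 20.6 TPM.

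Of 22 liver transcription factors, 3 had at least 100 TPM. Beside Xbp1 these were the homeobox gene Hhex, needed for liver budding, with 198 ± 36.1 TPM, and Foxa3 with 151 ± 27.2 TPM. Prox1, needed for hepatoblast migration, had 57.0 ± 6.50 TPM and was at 10 TPM or more in each cell, and Foxa2 had 43.0 TPM. Cebpa had 16.97 TPM, and Nr1h4, the bile acid receptor, was at 10 TPM or more in 6 cells. Of the factors by which hepatoblasts are known to support blood precursors, Kitl had 77.2 ± 6.45 TPM, Cxcl12 63.7 ± 8.71 TPM, Thpo 26.8 TPM and Epo 23.2 TPM. Kitl and Cxcl12 were at 10 TPM or more in each cell, and Epo in 41 cells.

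**Figure D2:**
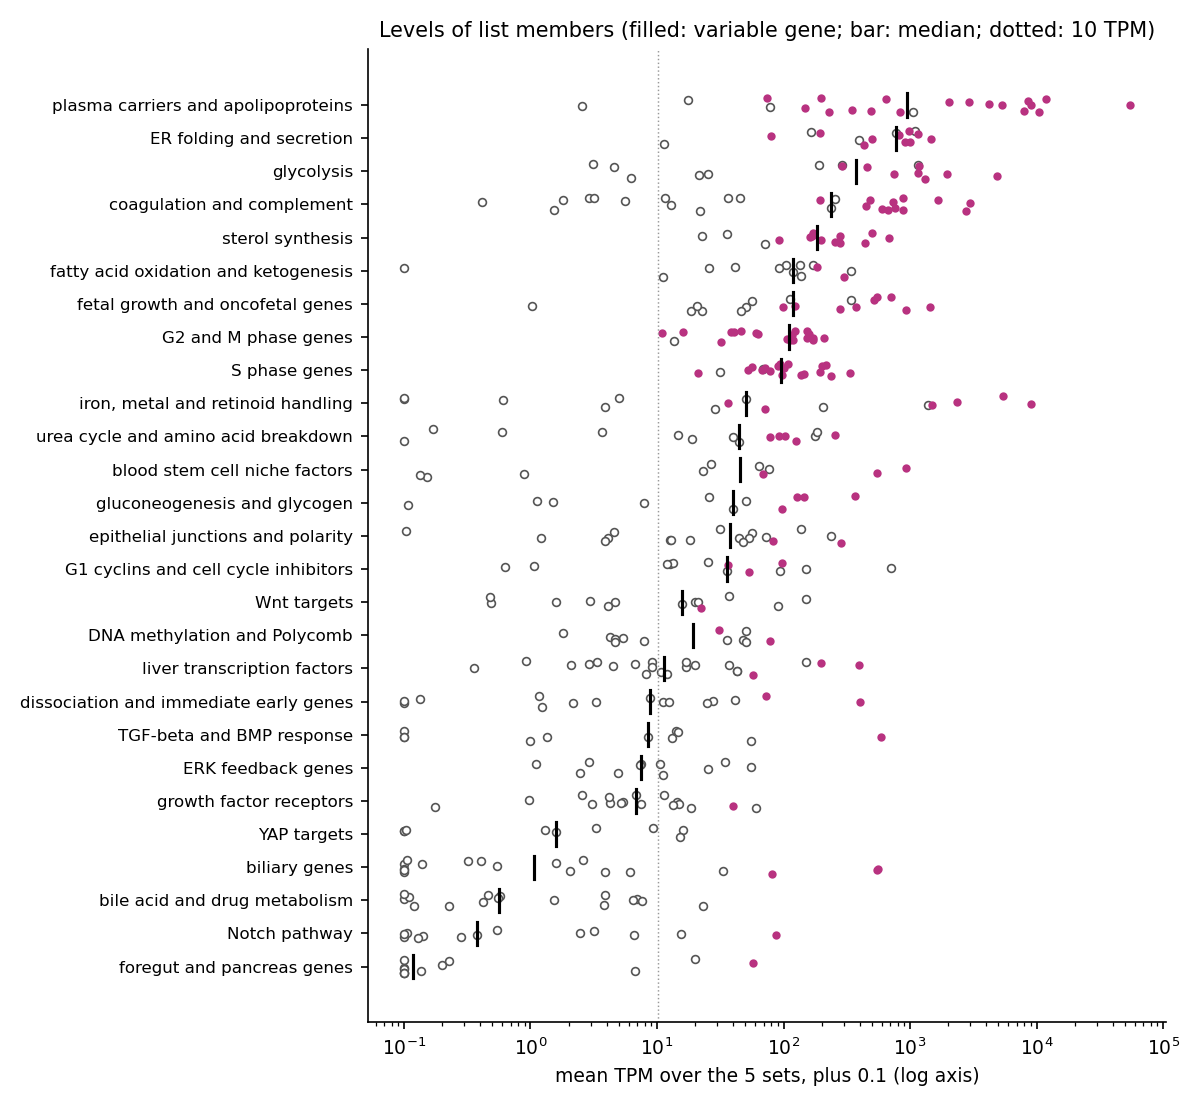
Mean TPM over the 5 sets, plus 0.1, on a log axis for each gene of 27 program lists; points are genes, filled where called variable between cells, bars are list medians, and the dotted line is 10 TPM. Plasma carriers lead, with 18 of 22 genes at 100 TPM or more, and lists such as bile acid and drug metabolism have 9 of 16 genes under 1 TPM.

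Markers of biliary and other cell types were mostly low. The keratins Krt8 and Krt18, shared by hepatoblasts and ducts, had 550 and 556 TPM. The duct markers Sox9, Krt19, Krt7, Spp1 and Spon1 had means of 5.98, 3.81, 1.48, 0.447 and 0.309 TPM. Sox9, a factor of the first duct cells, reached 10 TPM in 10 cells, with 157 TPM in the highest. The summed level of the 6 cholangiocyte markers, Epcam included, had a median of 9.11 TPM in DLK+ cells (0 to 43.7) and 62.5 TPM in EpCAM+ cells (0.570 to 275). The 11 red cell and 11 macrophage markers found summed to medians of 0 TPM, with at most 17.1 and 17.2 TPM in a cell. Among 12 markers of other blood cells, Pf4, a platelet and megakaryocyte gene, was seen in 2 cells and reached 614 TPM in a DLK+ cell. Endothelial markers summed to a median of 69.7 TPM, most of it from Egfl7 (65.8 TPM in the mean), and 10 of the 12 had means under 1 TPM. Of the 12 stellate and mesenchymal markers, Reln had 33.4 TPM and Vim 18.4 TPM, and 8 were under 1 TPM. Mesothelial markers summed to medians of 15.7 TPM in DLK+ and 31.8 TPM in EpCAM+ cells, and 6 of 10 were under 1 TPM. Neural markers had a median of 0 TPM, at most 24.2 TPM in a cell, and all 8 were under 1 TPM. The 8 gut and pancreas markers, 7 of them under 1 TPM, summed to a mean of 18.7 TPM in EpCAM+ set 3 and 3.28 to 4.75 TPM in the other 4 sets.

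The 2 EpCAM+ cells of E11.5 that the authors annotated as cholangiocytes were close to the hepatoblasts in their main products. They had 46700 and 63700 TPM of Afp and 23370 and 18060 TPM of Alb, both within the range of the 68 hepatoblasts. Their Sox9 was at 35.4 and 9.12 TPM. Cldn6, a tight junction gene of embryonic epithelia named after its values were seen, was at 1618 and 708 TPM in them. The hepatoblasts of both gates had 0 to 416 TPM of Cldn6, with a mean of 56.2 TPM. With 2 cells of 1 set no test was made.

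Variation between cells was measured against the ERCC RNAs, which are added in equal amounts and so carry technical noise only. Counts were scaled by each cell's endogenous total, and the squared coefficient of variation (CV) was taken within sets. A gene was called variable at 4 times the ERCC trend or more. Of 3746 genes with a mean of at least 50 scaled counts, 386 were variable, and 212 with the variance taken over all cells in place of within sets. The ratio to the trend favours abundant genes, and above 7740 scaled counts the trend is extrapolated. In both gates taken alone the number was similar, 355 in DLK+ cells and 387 in EpCAM+ cells. By list, 18 of 20 plasma carriers past the mean filter were variable, as were 12 of 16 coagulation and complement genes, 11 of 14 sterol synthesis genes, 18 of 20 S phase genes and 19 of 20 G2 and M phase genes. Of 8 liver transcription factors past the filter, 3 were variable, and Hnf4a was not, at 1.94 times the trend. Dlk1, the gate gene of the DLK+ cells, was just inside the threshold at 4.11 times the trend.

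**Figure D3:**
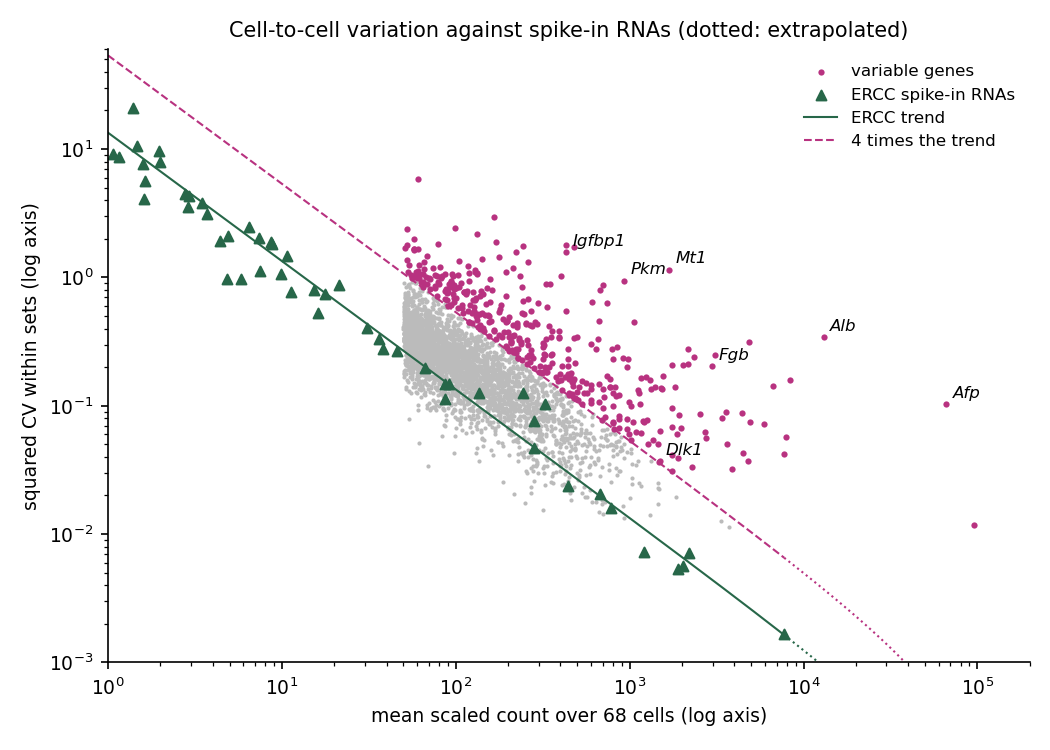
Squared CV within sets against mean scaled count over the 68 cells, both on log axes; grey points are genes, coloured points the 386 variable genes, triangles ERCC RNAs, and lines the ERCC trend and 4 times it. Afp and Alb lie far above the trend at high means, and Mt1, Pkm and Igfbp1 have a larger CV.

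Metallothioneins were among the genes with the widest spread. Mt1, a zinc and copper binding protein, ran from 26.8 to 27855 TPM over cells, with 385 TPM at the 10th percentile and 11838 TPM at the 90th. Its partner Mt2 had a median of 554 TPM and ran from 0 to 9348 TPM, with 56 cells at 10 TPM or more. The pair moved together from cell to cell. The within-set correlation of log2(TPM + 1) of Mt1 and Mt2 was 0.841 over 68 cells, and 0.871, 0.750 and 0.921 in the DLK+ sets and 0.884 and 0.974 in the EpCAM+ sets. Such correlations are descriptions, since the cells of a set share library preparation and TPM values of a cell share 1 total. Pkm ran from 0 to 2656 TPM with a median of 475. Igfbp1, a binding protein of insulin-like growth factors, ran from 13.9 to 3549 TPM, and Apoh, a phospholipid-binding carrier, from 0 to 1198 TPM.

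Mt1 and Mt2 are neighbours on chromosome 8. The 250 bases before their starts (RefSeq, GRCm38.p6, plus strand) are shown because this pair moved together over cells and between days. Capitals mark TGCNCNC, searched on both strands. This pattern is looser than TGCRCNC (R is A or G), the core of metal response elements, so a match need not be such a core. The window of Mt1 (chr8:94178839-94179088) held 1 match, 23 bases before the start, as did at least 1 in 44.4% of promoter windows. The window of Mt2 (chr8:94172368-94172617) held 5 matches, and 0.344% of windows held at least 5. Both windows end at the RefSeq start. Bases beyond it were not searched, so these counts are not totals for either promoter and do not rank the genes.
Mt1: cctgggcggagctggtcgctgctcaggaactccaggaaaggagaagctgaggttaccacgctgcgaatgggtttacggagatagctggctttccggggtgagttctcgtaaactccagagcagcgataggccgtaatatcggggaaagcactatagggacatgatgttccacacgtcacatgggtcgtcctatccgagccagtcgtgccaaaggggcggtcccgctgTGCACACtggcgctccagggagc
Mt2: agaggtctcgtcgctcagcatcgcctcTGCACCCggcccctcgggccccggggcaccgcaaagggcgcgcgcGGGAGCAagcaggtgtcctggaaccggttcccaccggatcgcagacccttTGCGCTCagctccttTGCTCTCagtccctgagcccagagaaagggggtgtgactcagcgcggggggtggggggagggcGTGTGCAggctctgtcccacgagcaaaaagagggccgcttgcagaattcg
No expression value here bears on binding at these letters.

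Plasma protein genes varied together from cell to cell, and coagulation and complement genes varied with them in each of the 5 sets. A plasma score, the mean log2(TPM + 1) of the 22 plasma carriers and apolipoproteins, ran from 8.29 to 11.2 with a median of 9.37. Within sets it went with the coagulation and complement score (r = 0.842), the gluconeogenesis score (0.672) and the urea cycle score (0.660), over 68 cells each. It ran against the scores of Wnt targets (r = -0.722), glycolysis (-0.577) and fetal growth genes (-0.578). For Wnt targets the sign was negative in each of the 5 sets, from -0.838 to -0.519. For fetal growth genes DLK+ set 3, with 7 cells, had the opposite sign at 0.586. Values on a TPM scale are shares of 1 total, so part of a negative relation to the most abundant list follows from the scale. That part was not tested.

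Single genes were ranked by the same measure, with a gene of the list left out of the score. Over all 3746 genes the median correlation with the plasma score was -0.209, with 25.8% positive. Outside the plasma list the highest, named after their values were seen, were Vtn, the adhesive plasma protein vitronectin, with r = 0.857, Fgb with 0.827, the selenium carrier Sepp1 with 0.826, antithrombin, Serpinc1, with 0.820 and Plg with 0.813. Vtn kept a value of 0.834 or more in each of the 5 sets. The lowest were the cytosolic chaperone Hsp90aa1, the nuclear transport GTPase Ran and the mitochondrial chaperone Hspe1, with r = -0.827 each. They were followed by the translation factor Eif5a (-0.810), Cacybp (-0.808) and the nucleolar protein Npm1 (-0.807). Hsp90aa1 lay between -0.884 and -0.750 in the 5 sets. Its level ran from 104 to 832 TPM over cells. Alb itself had r = 0.663 with the other 21 list members and Pkm had -0.757. Alb and Afp went together less closely, with r = 0.287 over cells and values from -0.162 to 0.541 in the 5 sets.

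**Figure D4:**
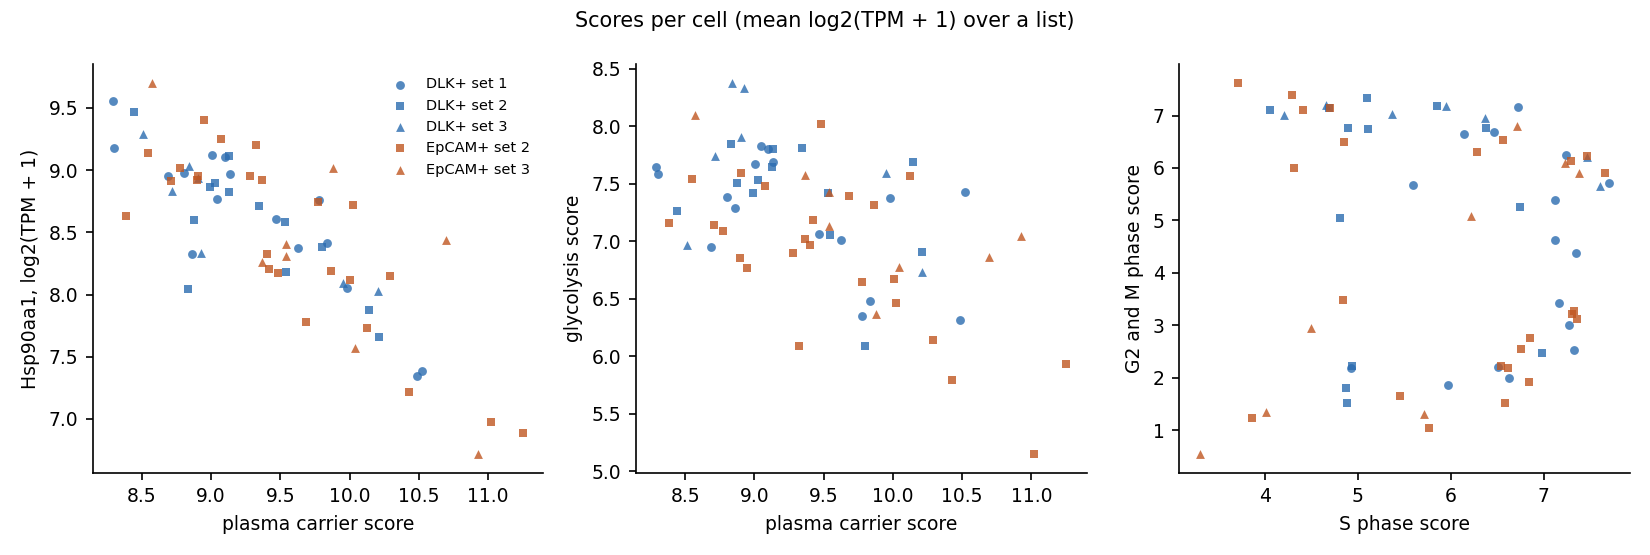
Each point is an E11.5 hepatoblast, coloured by gate and shaped by set; the plasma carrier score is plotted against Hsp90aa1 (left) and the glycolysis score (middle), and the S phase score against the G2 and M phase score (right), all in log2(TPM + 1). Hsp90aa1 falls along the plasma score (within-set r = -0.827). No cell has 5 or fewer genes on of both cycle lists, since each has at least 10 S phase genes on.

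Most cells carried transcripts of the division cycle. Of 20 S phase genes a cell had 10 to 20 at 10 TPM or more, with a median of 19. Of 20 G2 and M phase genes, such as cyclin B1 (Ccnb1) and Top2a, a cell had 2 to 20, with a median of 17. In 38 cells at least 15 G2 and M genes were on, in 22 cells 6 to 14, and in 8 cells 5 or fewer. No cell had 5 or fewer of both lists, which allows a share of up to 4.41% if cells are taken as independent. Each cell had at least 10 S phase genes on, so the S phase list alone set this result. It does not give the share of cells outside the cycle. Ccnb1 and Top2a went together over cells (within-set r = 0.732), and Ccnb1 ran from 0 to 731 TPM. The ratio of endogenous to ERCC reads, which follows the RNA content of a cell, went with the G2 and M score (r = 0.565), as did the number of genes detected (0.576). The phase makeup differed between sets. At least 15 G2 and M genes were on in 7 of 16, 9 of 13 and 7 of 7 cells of the DLK+ sets, and in 11 of 24 and 4 of 8 cells of the EpCAM+ sets. A count of transcripts above a level is not a measure of cycling by itself.

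Sets of the same gate differed widely for some genes. Over the 3 DLK+ sums the largest range was that of Xist, with 77.0, 107 and 0.129 CPM (counts scaled to the library total, not corrected for gene length), and set 3 held no cell of the Xist kind. Fabp1, a fatty acid binding protein of liver and gut, had 138, 318 and 42.3 CPM. The mitotic motor Cenpe had 13.96, 66.9 and 99.2 CPM and the S phase cyclin Ccne2 133, 27.3 and 48.3 CPM, so the cycle genes separated set 1 from sets 2 and 3. Over the 2 EpCAM+ sums the largest range was that of Clps, a lipase cofactor known from pancreas, with 17.4 and 84.9 CPM. In single cells Clps ran from 0 to 1895 TPM, so its set difference can rest on few cells. Igfbp1 had 224 and 647 CPM, and the mitotic gene Ube2c 213 and 67.0 CPM.

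The gates were then compared on counts summed per set, 2 EpCAM+ against 3 DLK+ sums, with edgeR's quasi-likelihood test and Benjamini-Hochberg adjustment over 16838 genes. Hepatoblasts of the EpCAM+ gate had higher Pla2g7 and Cdh1, and no other gene passed the test. In all, 2 genes were called (0.0119% of those tested), both higher in EpCAM+ cells, and 0 were lower (0%), with 428 genes at an unadjusted p below 0.05. DESeq2 called 8 higher and 3 lower, and without EpCAM+ set 2 the edgeR fit called 1 each way. Epcam chose the cells and is no finding. It was at 58.4 and 88.4 CPM in the EpCAM+ sums and 4.42, 5.25 and 6.81 CPM in the DLK+ sums. Even so the test did not call Epcam, so a short list of calls does not show that the gates were alike. Reads of Epcam were found in 30 of 32 EpCAM+ cells and in 15 of 36 DLK+ cells. Its counts by gate were thus separate in the sums and overlapping in single cells.

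Pla2g7 encodes a secreted enzyme that breaks down platelet-activating factor (chr17:43568098-43612201). It had 32.9 and 55.5 CPM in the EpCAM+ sums and 7.05, 6.08 and 4.50 CPM in the DLK+ sums, so the groups did not overlap. The log2 fold change was 2.89 ± 0.42 (SE, adjusted p = 0.00181, edgeR). The call was lost without DLK+ set 3, without EpCAM+ set 3 and in a fit of these groups alone. Both cells annotated as cholangiocytes had Pla2g7, at 56.4 and 115 TPM, against a mean of 21.3 TPM over the hepatoblast sets of both gates. These cells came from the EpCAM+ gate, where Pla2g7 was higher in hepatoblasts too, so this is not a like comparison. Cdh1, the epithelial adhesion protein E-cadherin (chr8:106603351-106670246), had 103 and 104 CPM in the EpCAM+ sums and 42.1, 40.5 and 44.5 CPM in the DLK+ sums. Its log2 fold change was 1.29 ± 0.23 (adjusted p = 0.0219, edgeR). The call was lost when any 1 of the 5 sums was left out and in a fit of these groups alone. With set number as a block in that fit, both Pla2g7 and Cdh1 lost their calls. Next in order of p, and not called, were Gas6, Cystm1 (2.07, adjusted p = 0.329) and Tmem30b (3.30, adjusted p = 0.566).

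Program lists differed between the gates in their medians, with Cdh1 the only listed gene called. The 22 plasma carriers had a median log2 difference of 0.45 with 0 called, and 21 of 22 were above 0, against a median of 0 and 46.7% above 0 over all genes tested. The 25 coagulation and complement genes had a median of 0.33 with 24 above 0. The 20 G2 and M genes had a median of -0.72 with 0 above 0, and 0 were called. At least 15 G2 and M genes were on in 23 of 36 DLK+ and 15 of 32 EpCAM+ cells, but the sets overlapped. The counts were 7 of 16, 9 of 13 and 7 of 7 in the DLK+ sets and 11 of 24 and 4 of 8 in the EpCAM+ sets. The low endogenous to ERCC ratio was a trait of EpCAM+ set 3 (median 38.38) and not of EpCAM+ set 2 (61.55). The higher gut and pancreas markers were likewise seen in set 3. The part of these differences in the list medians was not tested. The 20 G2 and M genes summed to medians of 1818 TPM in DLK+ and 584 TPM in EpCAM+ cells. Their set medians overlapped, with 832, 2876 and 3584 TPM in the DLK+ sets and 454 and 1219 TPM in the EpCAM+ sets. The 16 glycolysis genes had a median of -0.38 with 3 above 0, and the 14 tested dissociation and immediate early genes 0.93 with 10 above 0, with 0 called in both. The 15 tested biliary genes had a median of 0.66 with 11 above 0 and 0 called. Krt8 had 594 and 649 CPM in EpCAM+ sums against 359, 401 and 369 CPM in DLK+ sums, a log2 difference of 0.72 ± 0.20 that was not called (adjusted p = 1.0, edgeR). Mt1 had 1843 and 2443 CPM against 896, 578 and 1337 CPM, which did not overlap, with 1.19 ± 0.37 (adjusted p = 1.0). Alb had 11560 and 12180 CPM against 10540, 9815 and 7866 CPM, a difference of 0.34 ± 0.40.

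The day before, E10.5, differed widely. Between E10.5 and E11.5 the DLK+ hepatoblasts raised genes of plasma proteins, metallothioneins, sterol synthesis and fatty acid oxidation. Of 16838 genes, 372 were called (2.21%), 355 higher (2.11%) and 17 lower (0.101%) at E11.5, in 3 sums against 3 (edgeR, adjusted p below 0.05). The number that fell depended on the fit, with 52 lower and 550 higher by DESeq2 and 208 lower and 521 higher in a fit of these groups alone. Without E10.5 set 3 the count was 199. That set had 35.7 endogenous reads per ERCC read in the median cell, against 52.6 and 52.5 in sets 1 and 2, and its cholangiocyte markers summed to a median of 132 TPM, against 34.2 and 34.4. Their part in the result was not tested beyond leaving this set out. The median log2 change over all genes tested was 0.

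Among called genes with at least 10 CPM, the metallothioneins had the largest rises. Mt2 was at 2.23, 3.51 and 1.81 CPM in the E10.5 sums and 257, 106 and 380 CPM in the E11.5 sums, a log2 change of 6.60 ± 0.54 (adjusted p = 1.07e-09, edgeR). Mt1 went from 24.3, 28.3 and 17.1 CPM to 896, 578 and 1337 CPM, a change of 5.33 ± 0.41 (adjusted p = 3.38e-10). Neither gene's groups overlapped. The bulk DLK+ libraries, which are separate samples and were normalised apart with no test, had 14.9 and 17.4 CPM of Mt1 at E10.5, 271 and 279 CPM at E11.5 and 996 and 1433 CPM at E12.5. In bulk, fewer cells of a type and less RNA per cell cannot be told apart. Both calls were kept in each of the 11 alternative fits, as were those of the genes in the next paragraph except where said.

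Of the 22 plasma carriers, 14 rose and none fell, with a median log2 change of 1.23 and 7 calls left without E10.5 set 3. Alb went from 1832, 1726 and 500 CPM to 10540, 9815 and 7866 CPM, a change of 2.80 ± 0.39 (adjusted p = 1.88e-05, edgeR). Ahsg, the mineral-binding carrier fetuin-A, went from 26.03, 20.4 and 4.24 CPM to 601, 571 and 546 CPM, a change of 5.08 ± 0.70. Apoh rose by 4.68 ± 0.47 and Apob, the backbone of lipoprotein particles, by 1.90 ± 0.26. Afp was already at 28290, 29200 and 22650 CPM at E10.5 and reached 54120, 52700 and 55830 CPM, a change of 1.02 ± 0.22 (adjusted p = 0.00538) whose call was lost without E10.5 set 3. Alb thus rose by a larger log2 value than Afp, though the difference between the genes was not tested. Of 25 coagulation and complement genes, 12 rose and none fell (median 1.39). They included kininogen, Kng1, with 3.03 ± 0.32, and the complement regulator Cfi with 2.22 ± 0.21. Fgb, with 1560, 1843 and 1496 CPM at E10.5 and 2189, 2504 and 1791 CPM at E11.5, was not called (0.40 ± 0.30, adjusted p = 0.808).

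**Figure D5:**
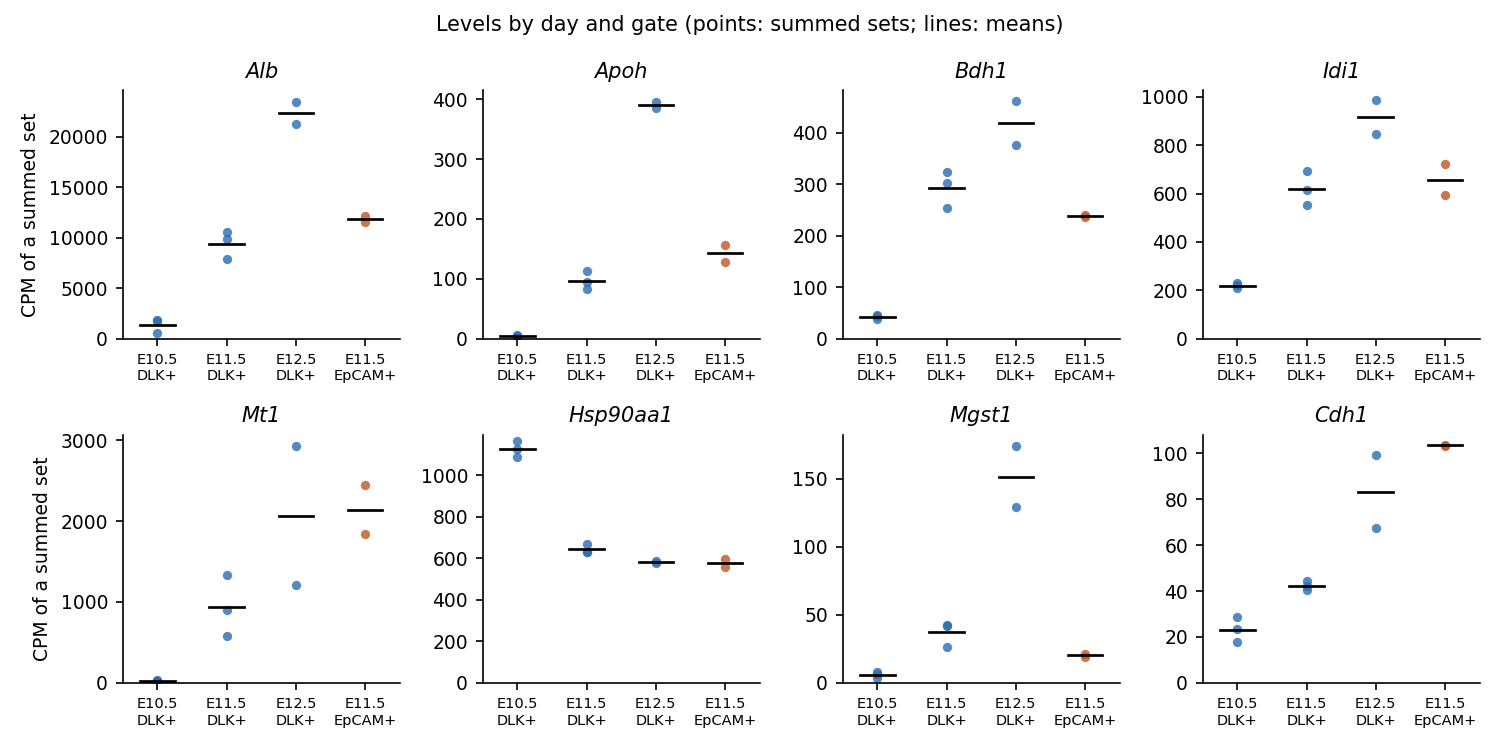
CPM of 8 genes in summed sets of DLK+ hepatoblasts at E10.5, E11.5 and E12.5 and of EpCAM+ hepatoblasts at E11.5; points are sums and lines their means. Alb, Apoh, Bdh1, Idi1, Mt1 and Mgst1 are higher and Hsp90aa1 is lower at E11.5 than at E10.5 with no overlap, and Cdh1 is near 103 CPM in both EpCAM+ sums.

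Most listed genes of sterol synthesis and fatty acid oxidation rose. Of 14 sterol synthesis genes, 11 rose and none fell (median 1.35), beside 2.11% higher over all genes, and 10 to 12 did so with any 1 sum left out. Hmgcs1, an early enzyme of the pathway, went from 224, 213 and 179 CPM to 533, 677 and 982 CPM (1.83 ± 0.25, adjusted p = 1.34e-05, edgeR). Idi1, a later enzyme, rose by 1.499 ± 0.174. Hmgcs1 and Idi1 also went together from cell to cell at E11.5 (within-set r = 0.719). The fatty acid oxidation and ketogenesis list had 9 of 12 tested genes higher and none lower (median 1.24), with 4 left without E10.5 set 3. Bdh1, which makes the ketone body hydroxybutyrate, went from 46.6, 38.0 and 43.1 CPM to 302, 255 and 324 CPM (2.79 ± 0.21, adjusted p = 2.16e-10). The bulk libraries had 68.7 and 55.5 CPM of Bdh1 at E10.5 and 343 and 347 CPM at E11.5.

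Other metabolic lists moved in part. Of 15 genes of the urea cycle and amino acid breakdown, 6 rose (median 1.84), including Otc with 1.94 ± 0.33, and 3 were left without E10.5 set 1. Of 11 gluconeogenesis and glycogen genes 3 rose (median 0.96). Of 16 glycolysis genes 0 were called, and Pkm, at 1687, 1712 and 1980 CPM at E10.5 and 944, 863 and 1473 CPM at E11.5, had -0.71 ± 0.81 (adjusted p = 0.993). The transferrin receptor Tfr2, an iron sensor of hepatocytes, rose by 2.65 ± 0.47. Of 22 liver transcription factors 1 was called, Nr1h4, with 0.0464, 0 and 0 CPM at E10.5 and 2.58, 4.56 and 0 CPM at E11.5. With at most 1 read in an E10.5 sum no fold is given, and the call was lost in 4 of the 6 fits with 1 sum left out. Hnf4a stayed between 78.3 and 90.5 CPM at E10.5 and between 73.0 and 104 CPM at E11.5 (-0.01 ± 0.30). No S phase or G2 and M gene of the 40 listed was called.

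Of the 17 genes that fell, the 5 described here each lost the call in at least 1 fit. Mfap2, a protein of extracellular microfibrils, had 195, 282 and 264 reads in the E10.5 sums and 0 reads in each E11.5 DLK+ sum, which makes it at least 47.5-fold lower, taking 3 reads per sum as the upper limit for a count of 0. Without E10.5 set 3, or without any 1 E11.5 sum, the call was lost. Dnaja1, a co-chaperone of heat shock proteins, went from 226, 211 and 218 CPM to 148, 139 and 121 CPM (-0.68 ± 0.15, adjusted p = 0.00859, edgeR), a call lost without E11.5 set 3. Marcksl1, an actin regulator, went from 277, 280 and 352 CPM to 139, 119 and 150 CPM (-1.16 ± 0.26), a call lost without E10.5 set 3 or E11.5 set 2. Hsp90aa1 went from 1126, 1091 and 1166 CPM to 667, 630 and 631 CPM (-0.81 ± 0.22, adjusted p = 0.0451), and the call was lost with any 1 sum left out. Its groups did not overlap, and the bulk libraries had 1845 and 1754 CPM at E10.5 and 1124 and 1223 CPM at E11.5. Cacybp, with -0.84 ± 0.21, lost its call in 5 of the 6 fits with 1 sum left out. Epcam had 26.4, 29.0 and 80.1 CPM at E10.5 and 4.42, 5.25 and 6.81 CPM at E11.5 in the DLK+ gate, with no overlap but no call (-3.06 ± 0.93, adjusted p = 0.0911). In the bulk libraries Epcam was at 60.2 and 76.9 CPM at E10.5 and 9.49 and 8.27 CPM at E11.5.

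The genes that changed between days were also set beside the plasma score of the E11.5 cells. Both measures use the E11.5 DLK+ cells, the one their sums and the other their deviations within sets, so they are set side by side without a test. Of the 355 genes higher at E11.5, 233 passed the mean filter of the score, and 211 of these (90.6%) had a positive correlation with the plasma score, against 25.8% of all 3746 genes. With the plasma list left out it was 197 of 219. The filter was set on E11.5 cells, where these genes were called higher, and 14 of the 22 genes of the score were called too. The share therefore does not show that the day change and the variation between cells are the same. The part of this selection and of the shared TPM total was not tested. Of the 17 genes lower at E11.5, 10 passed the filter, and their correlations lay between -0.827 and -0.411. Hsp90aa1 and Cacybp, named above for their fall, were among the lowest.

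Toward E12.5 the list of called genes was short. Of 16838 genes, 4 were called (0.0238%), each higher (0.0238%) and 0 lower (0%) at E12.5, in 2 sums against 3, with 611 at an unadjusted p below 0.05 (edgeR). DESeq2 called 19 higher and 9 lower, a fit of these groups alone 7 and 2, and the fit without E12.5 set 1 called 2 higher and 4 lower. This comparison and the one with E10.5 share the E11.5 DLK+ sums, so their values are given side by side only. Mgst1, a glutathione transferase of membranes, had 129 and 174 CPM against 42.3, 26.7 and 42.0 CPM (2.03 ± 0.34, adjusted p = 0.0103), lost without any 1 E11.5 set or E12.5 set 2. Rgn, a calcium-regulated enzyme of liver, had 431 and 346 CPM against 127, 109 and 114 CPM (1.74 ± 0.33, adjusted p = 0.0411), lost with any 1 sum left out. Ifi35 had 2.27 and 8.05 CPM against 0.646, 0.317 and 0.514 CPM (3.33 ± 0.56). That call was lost without any 1 E11.5 set or E12.5 set 2 and in a fit of these groups alone. It was also lost with set number as a block. Alb stood at 23430 and 21270 CPM at E12.5 (1.25 ± 0.40, adjusted p = 1.0). The 22 plasma carriers had a median log2 difference of 0.52 with 22 above 0, and the 20 G2 and M genes -0.88 with 0 above 0, against 0 and 44.3% above 0 over all genes tested. None of these 42 genes was called.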

How the data were processed

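The submitters' processing notes name TopHat2 2.1.0, Bowtie2, HTSeq 0.6.0 and the mouse build GRCm38, without roles. The strand setting is not given in the sources used here, so antisense and overlapping genes are uncertain. The deposited values were raw counts per gene and cell for 40824 genes and 92 ERCC RNAs. The gene lengths are a score-like column as deposited by the authors, and were used to compute TPM without ERCC. Counts carry no molecular identifiers, so intervals and limits for a count of 0 cover counting error only.

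Cells and lists were chosen with earlier results of these data known. Counts were summed over cells of one day, gate, annotated type and set with at least 2 cells, giving 42 sums, and fitted together in edgeR 4.0.16 (R 4.3.3; TMM, filterByExpr, quasi-likelihood test, Benjamini-Hochberg adjusted p under 0.05). SE is the log2 fold change divided by the root of F. Of 485 list names, 480 were found, in 27 program and 10 marker lists. List scores are means of log2(TPM + 1). The script was tested on simulated data. Alternatives were DESeq2 1.42.0, other scaling and filtering, fewer groups, a replicate block and each sum left out. Named were the gate and marker genes, the 20 highest, the 20 most variable, the 10 largest called changes each way per comparison (or the 5 smallest p), up to 4 genes a list and the 10 widest between sets. Other genes were named after their values were seen. Replicates are sets. Some results are not reported here.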

Additional observations from a re-analysis of the deposited data

Results flagged for a closer look

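Of 70 combinations of a set and a measure, 3 held a cell far from the rest of its set, and chance flags about 1 in 20. In DLK+ set 3 the highest of 7 cells had a score of ER folding and secretion genes of 9.52, against 8.68 in the next. In EpCAM+ set 3 the lowest of 8 cells had a urea cycle and amino acid score of 3.02, against 4.16 in the next. In the same set the highest of 8 cells had 947 TPM of Dlk1, against 630 in the next.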

How the results depend on the processing

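Counts of called genes and their split by direction depended on the fit, and the cause was not tested. For the gates (2 genes), DESeq2 called 11, a fit of the 2 groups alone 1, and fits with 1 sum left out 0 to 2. For E11.5 against E10.5 (372 genes), DESeq2 called 602, the groups alone 729, and leave-outs 199 to 320. For E12.5 against E11.5 (4 genes), the fit without a filter called 7, DESeq2 28, the groups alone 9, and leave-outs 0 to 6. Where 1 sum remained in an arm, it was assumed to vary like the other groups. Variable genes numbered 212 with the variance over all cells in place of within sets (386). Of the named genes' alternative values, 11 lost their call between gates, 150 between E11.5 and E10.5, and 19 between E12.5 and E11.5. Median list scores moved by more than the spread between cells in 28 cases and did not in 46 with CPM in place of TPM, and in 58 and 16 with a pseudocount of 0.1.

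Whether set numbers pair the sums could not be decided, since deviations within a group of 2 sums mirror each other. Same-numbered sums had deviations correlated at 0.067 and 0.098 between gates, from -0.055 to 0.072 between E10.5 and E11.5, and at -0.109 and -0.001 between E11.5 and E12.5. Differently numbered sums lay from -0.098 to 0.060, from -0.098 to 0.053 and from -0.087 to 0.109. With the replicate block 0, 526 (409 higher, 117 lower) and 25 (20 higher, 5 lower) genes were called in the 3 comparisons, and Pla2g7, Cdh1 and Ifi35 lost their calls.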
